A study of Mus musculus with 51 samples.

Results

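The insulin-like growth factor (IGF) system was examined in mouse stromal lines through 10 genes: the ligands Igf1 and Igf2, the receptors Igf1r and Igf2r, and the binding proteins Igfbp2, Igfbp3, Igfbp4, Igfbp5, Igfbp6 and Igfbp7. Members were taken by gene symbol from probe sets that name exactly 1 symbol, and each of the 10 had 1 such probe set. They are 10 of the 19938 genes measured in this way. No filter on low signal was applied, so all 10 entered every comparison.

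The study asked what distinguishes stromal lines that support hematopoietic stem and progenitor cells in culture from lines that do not. RNA samples on 51 Affymetrix mouse gene ST arrays form 17 groups of 3, and each line is a clone, so a difference between lines is a difference between clones. From the aorta-gonad-mesonephros (AGM) region at embryonic day 11 of (CBAxC57BL/10)F1 mice were taken the supportive lines UG26.1B6, AM30-3F4 and AM14-1C4 and the less-supportive line UG26.3B5. From C57BL/6 fetal liver at embryonic day 14.5 came AFT024 and 2012, labelled supportive, and BFC012, BFC and AFT011, labelled non-supportive. From adult bone marrow came BMC9 (supportive) and BMC10 (less-supportive), both of H2ts6 mice, and 14F1-1 (supportive) of BALB/c mice. OP9 (supportive) came from the fetal calvaria of (C57BL/6xC3H)F2-op/op mice. These 13 lines were harvested confluent on gelatin at 33 °C, except that 14F1-1 and OP9 replicates 1 and 2 were kept at 37 °C (OP9 replicate 3 is labelled 33 °C). AFT024 and BFC012 were also kept for 4 days in the presence or absence of c-Kit+ Sca1+ lineage-negative (KLS) cells of bone marrow and purified by absence of the leukocyte antigen CD45, which gave AFT024+KLS, AFT024-KLS, BFC012+KLS and BFC012-KLS. Nothing in the labels says that the 3 replicates of a group came from different cultures. The p-values therefore describe scatter among arrays within groups, and that scatter can be purely technical. It is pooled per gene over all confluent or all sorted groups, so it can be smaller or larger than the scatter of the groups compared.

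The deposited values are log2 signals, and a difference of 1 on this scale is a 2-fold difference in linear signal. The arrays had been normalized in 4 sets: the UG26, AFT024, BFC012 and BMC lines, OP9 with BFC, the sorted cells, and the AM lines with 14F1-1, 2012 and AFT011. Array medians lay between 5.04 and 7.14 over the sets, so levels were compared only within a set, and the signal of a gene was never set against that of another gene. All 10 stromal markers (Col1a1, Col1a2, Col3a1, Pdgfra, Pdgfrb, Vim, Thy1, Cxcl12, Nt5e and Eng) lay above the first quartile of genes in every group. Of 14 hematopoietic markers, between 7 (BFC012+KLS) and 11 (OP9 and BFC) lay below it. Ptprc, the gene of CD45, lay below it in every group, while Coro1a, Mpo and Tyrobp lay above it in every group. Replicates correlated at 0.991 or more over all genes in the confluent sets. Among the sorted cells, replicate 1 stood apart in 3 of 4 groups: its mean correlation with its own group was 0.977 in AFT024+KLS, 0.976 in AFT024-KLS and 0.972 in BFC012-KLS, against 0.984 to 0.993 for the other 9 sorted arrays. Results from sorted cells are therefore also given without these 3 arrays, an alternative chosen after the data were seen. In bulk RNA, fewer cells of a type and less RNA per cell cannot be told apart.

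As background, IGF1 and IGF2 signal through the type 1 receptor, a tyrosine kinase that works through insulin receptor substrates, phosphatidylinositol 3-kinase and AKT, and the type 2 receptor, which is also the mannose 6-phosphate receptor, takes up IGF2 for degradation. The binding proteins hold IGFs outside the cell and can block or prolong their action, and proteases such as pappalysin release the ligand. In hematopoietic niches stromal cells are a source of IGFs and of their binding proteins, and IGF2 and IGFBP2 have been used to expand hematopoietic stem cells in culture.

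Promoters of 5 members are shown first, because Igf2, Igfbp3 and Igfbp4 differed together between the AM lines and Igfbp6 and Igfbp7 together between AFT024 and BFC012. Each line gives the 150 bases before the annotated start, written 5′ to 3′ on the strand of the gene, from RefSeq on GRCm38.p6, and positions are counted back from the start, the base next to it being 1. Capitals mark every match, on either strand, to 3 core promoter motifs: the TATA box TATANA, the GC box GGGCGG and the CCAAT box CCAAT. Igf2 has 4 annotated starts in this table, and the window shown is that of the most downstream.
Igf2 chr7:142657497-142657646, minus strand: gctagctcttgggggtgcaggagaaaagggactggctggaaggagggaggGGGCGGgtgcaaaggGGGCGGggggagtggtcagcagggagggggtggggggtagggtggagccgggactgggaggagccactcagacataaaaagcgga
Igfbp3 chr11:7213924-7214073, minus strand: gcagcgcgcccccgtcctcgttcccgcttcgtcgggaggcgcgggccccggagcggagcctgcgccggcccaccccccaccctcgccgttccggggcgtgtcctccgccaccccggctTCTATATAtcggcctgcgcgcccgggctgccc
Igfbp4 chr11:99041094-99041243, plus strand: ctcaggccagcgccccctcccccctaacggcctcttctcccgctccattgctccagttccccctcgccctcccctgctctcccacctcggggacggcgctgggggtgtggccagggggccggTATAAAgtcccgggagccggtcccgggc
Igfbp6 chr15:102144036-102144185, plus strand: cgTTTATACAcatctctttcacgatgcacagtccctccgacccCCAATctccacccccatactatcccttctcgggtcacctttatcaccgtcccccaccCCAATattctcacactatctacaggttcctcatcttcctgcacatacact
Igfbp7 chr5:77408046-77408195, minus strand: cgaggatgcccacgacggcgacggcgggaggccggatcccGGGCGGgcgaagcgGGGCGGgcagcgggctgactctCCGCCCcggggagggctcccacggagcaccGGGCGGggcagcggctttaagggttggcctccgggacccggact

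The Igf2 window held 2 GC boxes, at bases 100 to 95 and 85 to 80. Igfbp3 held overlapping TATA box matches between bases 32 and 25, and Igfbp4 held 1 at bases 28 to 23. In Igfbp6 the TATA box matches lay far from the start, at bases 148 to 141, with CCAAT boxes at 107 to 103 and 50 to 46, and Igfbp7 held 4 GC boxes. Over all members, 3 of 10 genes held a TATA box match at 1 or more annotated starts, 5 held a GC box (Igf2, Igf1r, Igf2r, Igfbp2 and Igfbp7) and 2 held a CCAAT box (Igf1 and Igfbp6). Counted by start, 3 of the members' 14 windows held the TATA box, 6 the GC box and 2 the CCAAT box. Of all 32851 promoter windows of this length, also counted by start, 13.3% held the TATA box, 28.6% the GC box and 24.5% the CCAAT box. In the windows shown Igfbp3 and Igfbp4 both held the TATA box and Igf2 did not, and a match is a description of letters, not a measured binding site.

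Levels of the members differed between lines most in Igf2, Igfbp4, Igfbp6 and Igfbp7, whose group means spanned 4.09, 3.89, 3.86 and 3.63 on the log2 scale within a normalization set. Igf2r, the uptake receptor for IGF2, spanned least, with 1.22 at most. Over the 32 pairs of groups that share a set, the members passed the test in 182 comparisons, between 7 of 32 for Igfbp5 and 25 of 32 for Igfbp4 and for Igfbp6, where 25.1% of all gene-by-pair tests passed. A pass here and below is an adjusted p under 0.05 over all genes in limma.

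**Figure D1:**
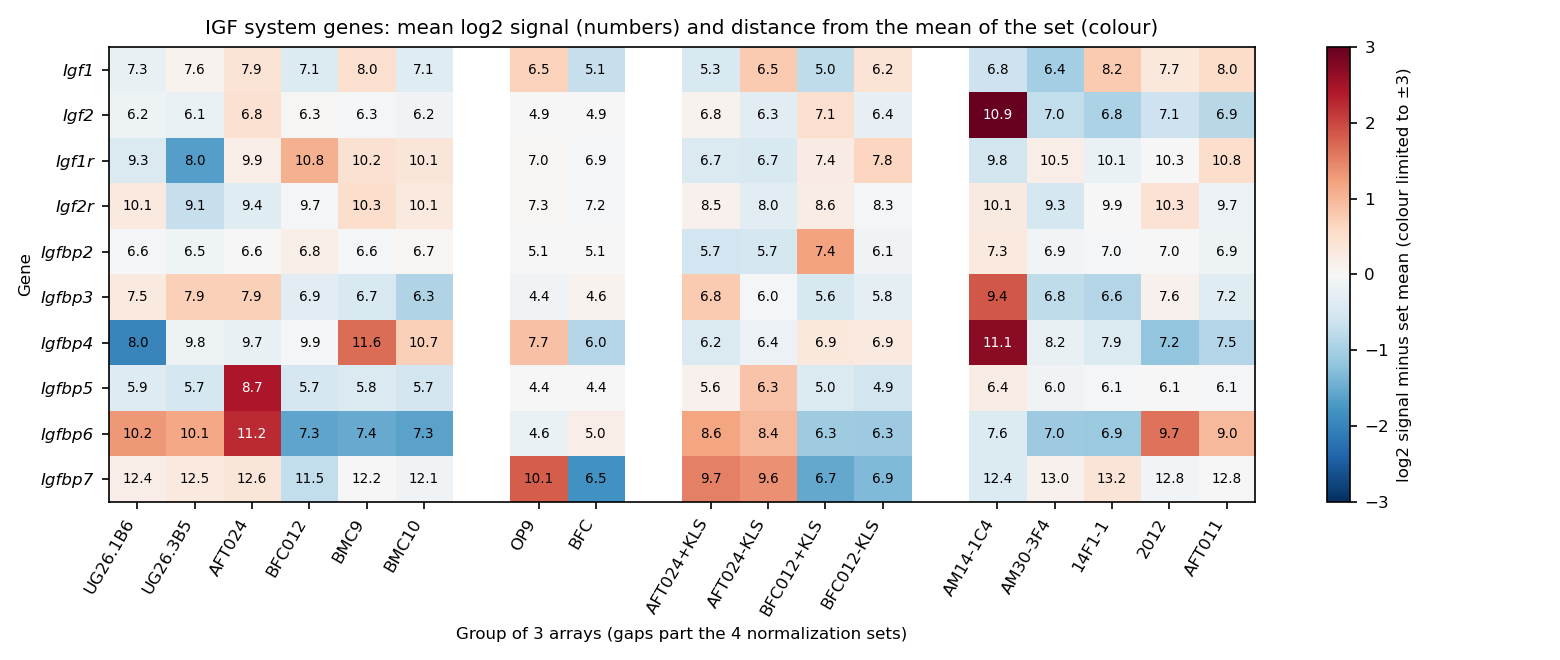
Mean log2 signal of the 10 genes (rows) in the 17 groups (columns, n = 3 arrays each), with gaps between the 4 normalization sets; colour gives the distance from the mean of the set. Igf2, Igfbp3 and Igfbp4 stand out in AM14-1C4, Igfbp5 and Igfbp6 in AFT024, and Igfbp7 differs between OP9 and BFC.

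Among the ligands, Igf1 was highest on average in 14F1-1 (8.20 ± 0.04, SD, n = 3) and lowest in AM30-3F4 (6.41 ± 0.12) within the set of 5 lines, and 3 of the 13 steps between neighbours in the order of groups passed, over the 4 sets. In the order 14F1-1, AFT011, 2012, AM14-1C4 and AM30-3F4 the step that passed was that between 2012 (7.74 ± 0.09) and AM14-1C4 (6.80 ± 0.07). Igf2 was near 7 in 4 of those lines, between 6.82 ± 0.12 in 14F1-1 and 7.15 ± 0.34 in 2012, with no step between neighbours passing, and 10.91 ± 0.08 in AM14-1C4. In the UG26, AFT024, BFC012 and BMC set Igf2 lay between 6.12 and 6.78, and AFT024 was above each of the other 5 groups. OP9 and BFC were at 4.88 ± 0.09 and 4.91 ± 0.04.

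Of the receptors, Igf1r, the signalling receptor for both ligands, was highest in BFC012 (10.78 ± 0.03) and lowest in UG26.3B5 (8.05 ± 0.53) of its set, each different from all 5 other groups. In the AM set AM14-1C4 was the lowest for Igf1r (9.75 ± 0.07), different from all 4 others. Igf2r was lowest in UG26.3B5 (9.07 ± 0.15) and in AM30-3F4 (9.34 ± 0.07) of their sets. Both receptors lay above the third quartile of genes in most groups, Igf1r in 13 of 17 and Igf2r in 16 of 17.

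The binding proteins fell into genes with a wide spread and genes with a narrow one. Igfbp4 ran from 11.63 ± 0.29 in BMC9 to 7.96 ± 0.02 in UG26.1B6 in the first set and from 11.11 ± 0.04 in AM14-1C4 to 7.22 ± 0.11 in 2012 in the AM set, and 7 of its 13 neighbouring steps passed. Igfbp6 had a high tier (AFT024 11.17 ± 0.14, UG26.1B6 10.21 ± 0.33, UG26.3B5 10.08 ± 0.08) and a low tier in which BMC9, BFC012 and BMC10 lay between 7.30 and 7.40 with no step passing. Igfbp5 was below or near the first quartile of genes outside AFT024: BFC012, UG26.3B5 and BMC10 lay below it, and 1 of its 13 steps passed, between AFT024 (8.68 ± 1.31) and UG26.1B6 (5.87 ± 0.12). Igfbp2, which binds IGF2 with high affinity, passed in 8 of 32 pairs and was below the median of genes in 15 of 17 groups.

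In 5 pairs a supportive line was set against a less or non-supportive line within its normalization set, which asks whether the IGF genes follow the support label. No member differed in the same direction in all 5 pairs. Igf1 was higher in the supportive line in 3 pairs and did not pass in 2. Igfbp3 was higher in 3 and lower in 1. Igf1r was higher in 1 and lower in 2, and Igfbp2 passed in 0 of 5 pairs in limma (also 0 at an unadjusted p under 0.05), but passed in AFT024 minus BFC012 under 2 alternatives given there. The pairs are 5 comparisons of clones, so these counts describe these clones only. Between 8.56% (AGM pair) and 34.4% (OP9 minus BFC) of all genes passed in a pair. How many of all genes passed in as many pairs was not counted, so these counts cannot be called unusual or usual.

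**Figure D2:**
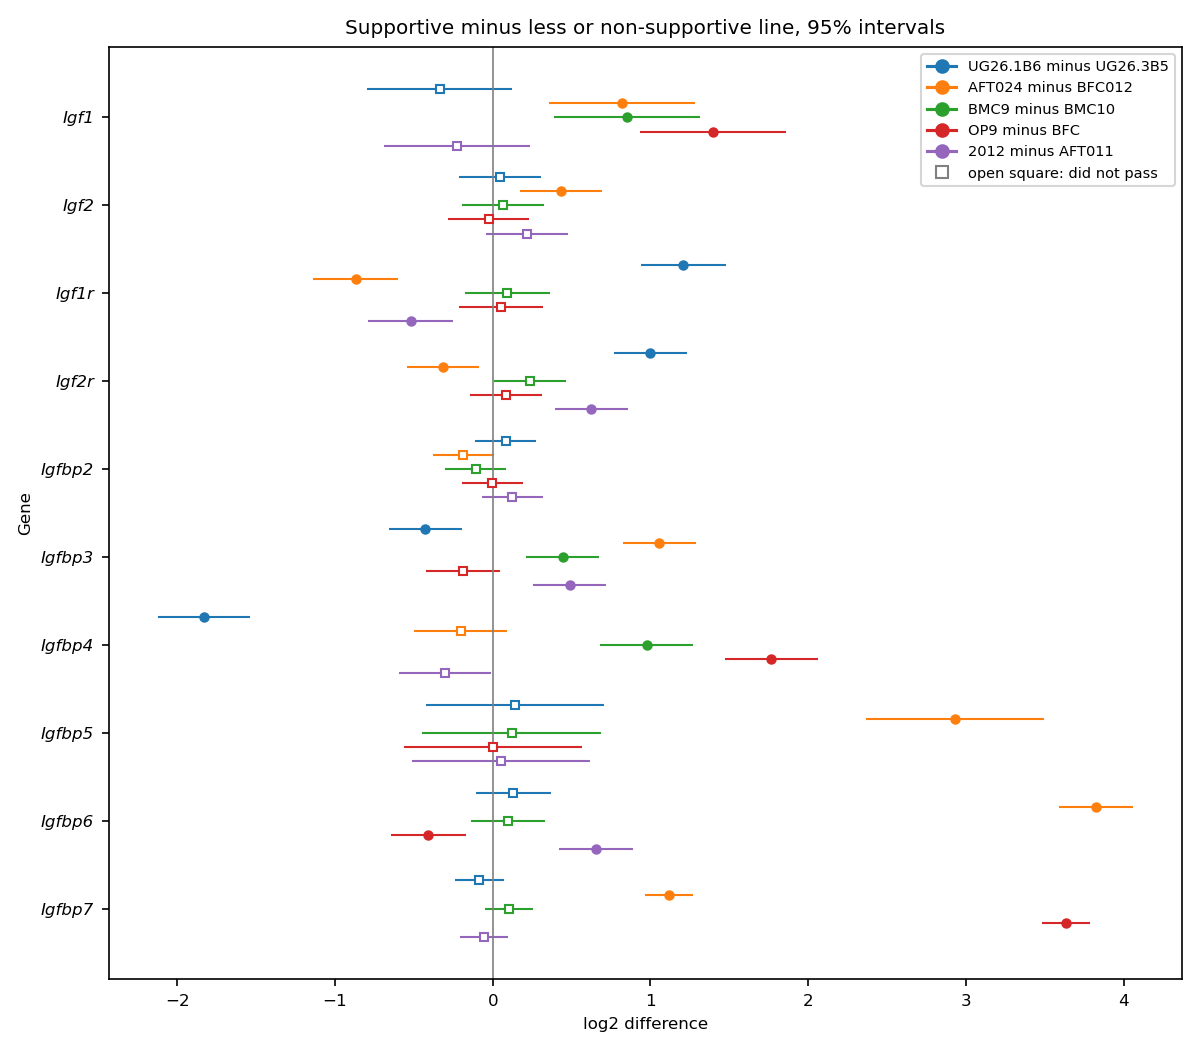
Log2 difference, supportive minus less or non-supportive line, for the 10 genes in 5 pairs; points give the estimate and lines the 95% interval from limma, filled circles passed and open squares did not. Igf1r lies right of 0 for UG26.1B6 minus UG26.3B5 and left of 0 for AFT024 minus BFC012 and 2012 minus AFT011.

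In the AGM pair, both receptors were higher in supportive UG26.1B6 than in less-supportive UG26.3B5, and 2 binding proteins were lower. Of the 10 members 4 passed, where 8.56% of all genes did, and the median difference of members was 0.06 against 0.03 over all genes. Igf1r measured 9.40, 9.23 and 9.14 in UG26.1B6, against 8.64, 7.88 and 7.62 in UG26.3B5. All UG26.1B6 arrays were above all UG26.3B5 arrays, which themselves spread widely. The difference was 1.21 (SE 0.13, adjusted p = 3.21e-08 in limma), 2.31-fold. Igf2r measured 10.17, 9.92 and 10.13 in UG26.1B6, against 8.92, 9.21 and 9.08 in UG26.3B5 (difference 1.00, adjusted p = 5.7e-08), again without overlap.

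Igfbp4, a binding protein known mainly as an inhibitor of IGF action, measured 7.97, 7.94 and 7.97 in UG26.1B6, against 9.66, 9.90 and 9.82 in UG26.3B5. The groups did not overlap, and the difference of -1.83 (SE 0.14) had an adjusted p of 1.65e-11. Igfbp3, the main carrier of IGFs in serum, was lower by less: 7.40, 7.55 and 7.54 in UG26.1B6, against 7.94, 7.87 and 7.96 in UG26.3B5 (difference -0.43, adjusted p = 0.0137). That call was lost with only the arrays of the normalization set fitted (adjusted p = 0.0735) and without UG26.1B6 replicate 1 (0.056) or UG26.3B5 replicate 3 (0.0536). Of 43 other measured genes of the pathway 5 were higher and 0 lower in limma (4 lower at an unadjusted p under 0.05). Pappa, the protease that cleaves IGFBP4, was among those higher, with 7.88 ± 0.13 in UG26.1B6 and 6.23 ± 0.03 in UG26.3B5 (difference 1.65, adjusted p = 2.38e-06). The 6 adipocyte markers summed to 48.0 to 48.9 in UG26.1B6 and 49.4 to 50.2 in UG26.3B5, with 2 lower. The 10 stromal markers summed to 101.2 to 104.9 in UG26.1B6 and 98.8 to 101.1 in UG26.3B5. Of them 3 were higher and 0 lower in limma (1 lower at an unadjusted p under 0.05). The part of these markers in the result was not tested.

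In the fetal liver pair AFT024 over BFC012, 8 of 10 members passed, where 28.5% of all genes did. Both ligands and 4 binding proteins were higher in supportive AFT024, and both receptors were lower. The median difference was 0.63 over the members and -0.02 over all genes.

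Igfbp6, a binding protein with a preference for IGF2, measured 11.32, 11.15 and 11.03 in AFT024, against 7.39, 7.31 and 7.32 in BFC012. The gap between the groups was many times the spread within either, with a difference of 3.83 (SE 0.12, 14.2-fold, adjusted p = 1.02e-23). Igfbp5, the binding protein abundant in bone and connective tissue, measured 10.05, 8.54 and 7.44 in AFT024, against 5.84, 5.69 and 5.70 in BFC012. All AFT024 arrays were above all BFC012 arrays, but the AFT024 arrays differed among themselves by more than those of any other member and group (SD 1.31). The difference was 2.93 (SE 0.28, adjusted p = 1.69e-10), 2.25 without AFT024 replicate 1 and 3.55 without AFT024 replicate 3. The SE rests on the spread of Igfbp5 pooled over all confluent groups. Under the alternatives the adjusted p for Igfbp5 in limma was at most 0.00421.

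Igfbp7, a secreted protein with low affinity for IGFs, measured 12.58, 12.49 and 12.66 in AFT024, against 11.59, 11.39 and 11.39 in BFC012 (difference 1.12, adjusted p = 3.56e-14). Igfbp3 measured 8.32, 7.77 and 7.68 in AFT024, against 6.98, 6.77 and 6.84 in BFC012 (1.06, adjusted p = 3.35e-09). Neither gene overlapped between the lines. Igfbp2 and Igfbp4 did not pass, with differences of -0.19 (95% interval -0.38 to 0.01) and -0.20 (-0.50 to 0.09). Igfbp2 passed with each array centred on its median (-0.27, adjusted p = 0.0219) and without AFT024 replicate 3 (-0.29, adjusted p = 0.031). Igfbp4 passed without BFC012 replicate 1 (-0.43, adjusted p = 0.0182) and was 0.00322 without BFC012 replicate 3.

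For the ligands, Igf1 measured 8.14, 7.97 and 7.63 in AFT024, against 7.58, 6.86 and 6.84 in BFC012 (0.82, SE 0.23, adjusted p = 0.005), with the lowest AFT024 array just above the highest BFC012 array. The Igf1 call was lost with only the arrays of the normalization set fitted (0.0721). Igf2 measured 6.96, 6.41 and 6.95 in AFT024, against 6.40, 6.28 and 6.34 in BFC012 (0.43, SE 0.13, adjusted p = 0.00832). Both Igf2 means lay below the median of genes. The Igf2 call was lost with only the compared arrays fitted (adjusted p = 0.0761) and without AFT024 replicate 1 (0.0734) or AFT024 replicate 3 (0.0665). Igf1r averaged 9.91 ± 0.06 in AFT024 and 10.78 ± 0.03 in BFC012 (-0.87, adjusted p = 2.43e-06). Igf2r overlapped between the lines (9.42 ± 0.24 in AFT024 and 9.73 ± 0.09 in BFC012, -0.32, adjusted p = 0.0307), and its call was lost with only the compared arrays (0.132), with only the arrays of the set (0.162) and without AFT024 replicate 2 (0.119), AFT024 replicate 3 (0.193), BFC012 replicate 1 (0.0533) or BFC012 replicate 3 (0.128).

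Of the 43 other genes of the pathway, 9 were higher and 7 lower in AFT024. The largest were Grb14, an adaptor that inhibits insulin and IGF receptor kinases (7.44 ± 0.16 in AFT024 and 8.70 ± 0.19 in BFC012, -1.25, adjusted p = 1.78e-10), and Htra1, a secreted protease that can cleave IGF binding proteins (10.25 ± 0.33 in AFT024 and 9.04 ± 0.78 in BFC012, 1.21, adjusted p = 3.34e-05). Irs1, the adaptor that couples the type 1 receptor to phosphatidylinositol 3-kinase, was higher by 0.75 (adjusted p = 0.0161). Markers of other cell types moved between the same lines. The 6 mesothelial markers summed to 41.8 to 42.3 in AFT024 and 52.9 to 55.2 in BFC012, with 1 higher and 5 lower, and the 6 adipocyte markers to 45.4 to 46.8 in AFT024 and at most 40.0 in BFC012, with 2 higher. Of 10 stromal markers 5 were higher and 2 lower. The part of these markers in the IGF differences was not tested.

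In the bone marrow pair BMC9 over BMC10, 3 of 10 members passed and all 3 were higher in supportive BMC9, where 15.5% of all genes passed (0 lower in limma, also 0 at an unadjusted p under 0.05). The median difference was 0.11 over the members and 0.03 over all genes. Igfbp4 measured 11.29, 11.85 and 11.75 in BMC9, against 10.27, 10.89 and 10.80 in BMC10. Each BMC9 array was above every BMC10 array, and replicate 1 was the lowest of both groups. The difference was 0.98 (SE 0.14, adjusted p = 4.46e-06). Igfbp3 averaged 6.75 ± 0.11 in BMC9 and 6.30 ± 0.10 in BMC10 (0.44, adjusted p = 0.00564).

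Igf1 measured 8.26, 7.34 and 8.33 in BMC9, against 7.89, 6.93 and 6.56 in BMC10. The groups overlapped, and the difference of 0.85 (SE 0.23) had an adjusted p of 0.00754. It did not pass with only the arrays of the pair in the fit (adjusted p = 0.252), with the replicate number added to that fit as a block (0.0813) or with only the arrays of the set (0.109). It was also lost without BMC9 replicate 1 (0.0584), BMC9 replicate 3 (0.0696) or BMC10 replicate 3 (0.121). Igf2r, which did not pass, did so without BMC9 replicate 3 (0.39, adjusted p = 0.0141).

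Of the 43 other genes of the pathway, 8 were higher and 4 lower in BMC9. Grb10, an imprinted adaptor that inhibits the insulin and type 1 IGF receptors, measured 5.37, 5.79 and 6.10 in BMC9, against 9.51, 9.70 and 9.36 in BMC10 (-3.77, adjusted p = 2.33e-23). All BMC9 arrays were below all BMC10 arrays. Pappa averaged 9.68 ± 0.28 in BMC9 and 7.43 ± 0.78 in BMC10 (2.25, adjusted p = 2.2e-09), so the protease of IGFBP4 and Igfbp4 itself were both higher in BMC9. Htra1 was lower (8.97 ± 0.15 in BMC9 and 10.41 ± 0.28 in BMC10, -1.44). Stromal markers moved too, with 7 of 10 higher (sums 102.9 to 106.6 in BMC9 and 89.3 to 93.8 in BMC10), as did 4 of 6 adipocyte markers (51.5 to 52.6 in BMC9 and 44.8 to 46.5 in BMC10), and their part in the result was not tested.

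The 3 pairs of the first set could be compared with each other as differences of differences. AFT024 minus BFC012 differed from UG26.1B6 minus UG26.3B5 in 8 of 10 members, where 24% of all genes passed. The receptors had opposite signs in these pairs: the fetal liver difference minus the AGM difference was -2.08 (SE 0.19, adjusted p = 8.21e-11) for Igf1r and -1.32 (SE 0.16, adjusted p = 5.14e-08) for Igf2r. The call on Igf1 there was lost with only the arrays of the set fitted (0.0854). BMC9 minus BMC10 differed from the AGM pair in 5 members (12.6% of all genes), with the largest for Igfbp4, 2.81 (SE 0.20, adjusted p = 1.49e-12). With only the arrays of the groups compared 3 members passed there, the calls on Igf1 (adjusted p = 0.169) and Igf2r (0.051) being lost. Both stayed lost with the replicate number added to that fit as a block (0.158 and 0.0525). AFT024 minus BFC012 differed from BMC9 minus BMC10 in 7 members (25.5% of all genes), with the largest for Igfbp6, 3.73 (SE 0.16, adjusted p = 5.89e-19), and Igfbp5, 2.81 (SE 0.39, adjusted p = 7.4e-07). With only the arrays of the groups compared the calls on Igf2r (0.127) and Igfbp3 (0.0564) were lost there, and also with the block added (0.0556 and 0.0585). Without AFT024 replicate 2, Igf2 passed in both fetal liver contrasts, with 0.57 against the AGM pair and 0.55 against the bone marrow pair. Without AFT024 replicate 3, Igfbp2 passed against the AGM pair (-0.37, adjusted p = 0.0452), and without BMC10 replicate 3 the call on Igf1 between the bone marrow and AGM pairs was lost (0.0537).

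OP9 was set against BFC, a non-supportive fetal liver line. Of the members 3 were higher in OP9 and 1 lower, 4 of 10 in all, where 34.4% of all genes passed. The median difference was 0.03 over the members and 0.01 over all genes. Igfbp7 measured 10.17, 10.15 and 10.05 in OP9, against 6.48, 6.54 and 6.45 in BFC. The groups did not overlap, and the difference was 3.63 (SE 0.08, 12.4-fold, adjusted p = 3.87e-28). Igfbp4 measured 7.80, 7.77 and 7.65 in OP9, against 5.89, 5.96 and 6.07 in BFC (1.77, adjusted p = 3.88e-12).

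Igf1 measured 6.59, 6.39 and 6.46 in OP9, against 5.10, 5.10 and 5.05 in BFC (1.40, SE 0.23, adjusted p = 5.38e-06), without overlap. Igfbp6 measured 4.64, 4.68 and 4.47 in OP9, against 5.08, 5.08 and 4.86 in BFC (-0.41, adjusted p = 0.00519). Both Igfbp6 means lay below the median of genes of this set, 5.27. Igf2, Igf1r, Igf2r, Igfbp2, Igfbp3 and Igfbp5 did not pass. Among the 43 other genes of the pathway 11 were higher and 12 lower, led by Kazald1, a secreted protein related to the binding proteins (8.82 ± 0.07 in OP9 and 6.00 ± 0.03 in BFC, 2.82), Irs1 (2.36) and Grb10 (-2.14).

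All 6 adipocyte markers were higher in OP9, with sums of 54.3 to 55.2 in OP9 and 29.0 to 30.0 in BFC, and 4 of 6 mesothelial markers were lower (27.6 to 28.4 in OP9 and 35.4 to 36.0 in BFC). Of 10 stromal markers 7 were higher and 1 lower, with sums of 75.8 to 77.0 in OP9 and 65.4 to 66.0 in BFC. Their part in the result was not tested. OP9 and BFC differ in tissue, strain and, for 2 of 3 OP9 arrays, culture temperature, which cannot be told apart from the line. Without OP9 replicate 3, labelled 33 °C, 4 members passed as well.

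In the second fetal liver pair, 2012 over AFT011, 4 of 10 members passed, where 27.6% of all genes did, and no member reached a 2-fold difference. The median difference was 0.09 over the members and 0.07 over all genes. Igfbp6 measured 9.80, 9.69 and 9.55 in 2012, against 9.10, 8.84 and 9.14 in AFT011 (0.65, adjusted p = 3.7e-05). Igf2r measured 10.30, 10.31 and 10.33 in 2012, against 9.71, 9.61 and 9.75 in AFT011 (0.63, adjusted p = 4.63e-05). Igfbp3 was higher by 0.49 (adjusted p = 0.00128) and Igf1r lower by 0.52 (10.30 ± 0.13 in 2012 and 10.82 ± 0.05 in AFT011, adjusted p = 0.0028). None of these 4 genes overlapped between the lines. Igf1r was thus lower in the supportive line of both fetal liver pairs.

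Neither ligand passed in this pair, with -0.23 (95% interval -0.69 to 0.24) for Igf1 and 0.22 (-0.04 to 0.48) for Igf2. Igf1 passed with only the arrays of the set fitted (adjusted p = 0.0238), and Igf2 without 2012 replicate 2 (0.36, adjusted p = 0.0424). Igfbp4 (-0.30) passed with only the compared arrays (0.023) and with only those of the set (0.00164). Among the 43 other pathway genes 10 were higher and 8 lower. Pappa averaged 7.59 ± 0.19 in 2012 and 9.36 ± 0.12 in AFT011 (-1.77, adjusted p = 1.58e-07) and Htra1 8.99 ± 0.15 in 2012 and 10.04 ± 0.17 in AFT011 (-1.06), so both of these proteases were lower. Of 9 listed other binding partners, proteases and protease inhibitors, 5 were higher, 2 lower and 2 did not pass. The 6 mesothelial markers summed to 41.5 to 43.1 in 2012 and 58.1 to 58.5 in AFT011, with 1 higher and 5 lower. Of 10 stromal markers 4 were higher and 1 lower, and of 6 adipocyte markers 3 were higher and 1 lower. The part of these markers in the result was not tested.

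The AM lines are both supportive AGM lines, and the comparison of AM14-1C4 with AM30-3F4 shows how far IGF genes differ within a support label. Of the 10 members 8 passed, 6 higher and 2 lower in AM14-1C4, where 31.6% of all genes passed. The median difference was 0.53 over the members and 0.01 over all genes. Igf2, an imprinted fetal growth factor, and the binding proteins Igfbp3 and Igfbp4 carried the largest differences.

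Igf2 measured 10.99, 10.90 and 10.83 in AM14-1C4, against 6.99, 7.13 and 6.98 in AM30-3F4. All AM14-1C4 arrays were far above all AM30-3F4 arrays, and the difference of 3.88 (SE 0.13, adjusted p = 2.45e-22) is 14.7-fold. Igfbp4 measured 11.15, 11.10 and 11.08 in AM14-1C4, against 8.27, 8.10 and 8.15 in AM30-3F4 (2.94, SE 0.14, 7.65-fold, adjusted p = 1.17e-17). Igfbp3 measured 9.26, 9.37 and 9.50 in AM14-1C4, against 6.58, 6.84 and 6.87 in AM30-3F4 (2.61, SE 0.11, 6.11-fold, adjusted p = 5.43e-19). For these 3 genes AM14-1C4 was also above 14F1-1, 2012 and AFT011, and no array of another line of the set reached its level.

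The other members differed by less than 2-fold. Igf2r averaged 10.14 ± 0.03 in AM14-1C4 and 9.34 ± 0.07 in AM30-3F4 (0.80, adjusted p = 4.97e-07), and Igf1r measured 9.82, 9.69 and 9.76 in AM14-1C4, against 10.52, 10.44 and 10.55 in AM30-3F4 (-0.75, adjusted p = 2.05e-05). The receptors thus differed in opposite directions. Igfbp6 was higher by 0.67 (adjusted p = 1.41e-05), Igfbp2 was higher by 0.39 (adjusted p = 0.00118) and Igfbp7 was lower by 0.54 (adjusted p = 4.49e-07). Igf1 (0.39, adjusted p = 0.231) and Igfbp5 (0.34, adjusted p = 0.457) did not pass although their arrays did not overlap, and both passed when only the arrays of these 2 lines were fitted (0.000863 and 0.00149).

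Of 9 listed other binding partners, proteases and protease inhibitors, 2 were higher, 2 lower and 5 did not pass between the same lines. Among the 43 other genes of the pathway 11 were higher and 11 lower in AM14-1C4. Stc1, a secreted stanniocalcin that inhibits pappalysins, measured 10.08, 9.90 and 9.91 in AM14-1C4, against 5.88, 6.21 and 6.20 in AM30-3F4 (3.87, SE 0.10, adjusted p = 4.61e-25). Stc2, the other stanniocalcin, named after its values were seen, averaged 8.15 ± 0.14 in AM14-1C4 and 7.13 ± 0.03 in AM30-3F4 (1.02, adjusted p = 3.39e-08). Pappa went the other way, with 6.93, 6.92 and 7.31 in AM14-1C4, against 9.91, 9.66 and 9.64 in AM30-3F4 (-2.68, adjusted p = 1e-11). So RNA of Igfbp4, Stc1 and Stc2 was higher in AM14-1C4 and that of Pappa was lower, and a link between these differences was not tested. Pik3r2 and Pik3r1, regulatory subunits of phosphatidylinositol 3-kinase, were higher by 1.28 and 1.10. Of 10 stromal markers 5 were higher and 3 lower (sums 102.4 to 103.1 in AM14-1C4 and 99.7 to 100.4 in AM30-3F4), 2 of 14 hematopoietic markers were higher (86.1 to 86.9 in AM14-1C4 and 80.9 to 81.9 in AM30-3F4), and their part in the result was not tested.

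**Figure D3:**
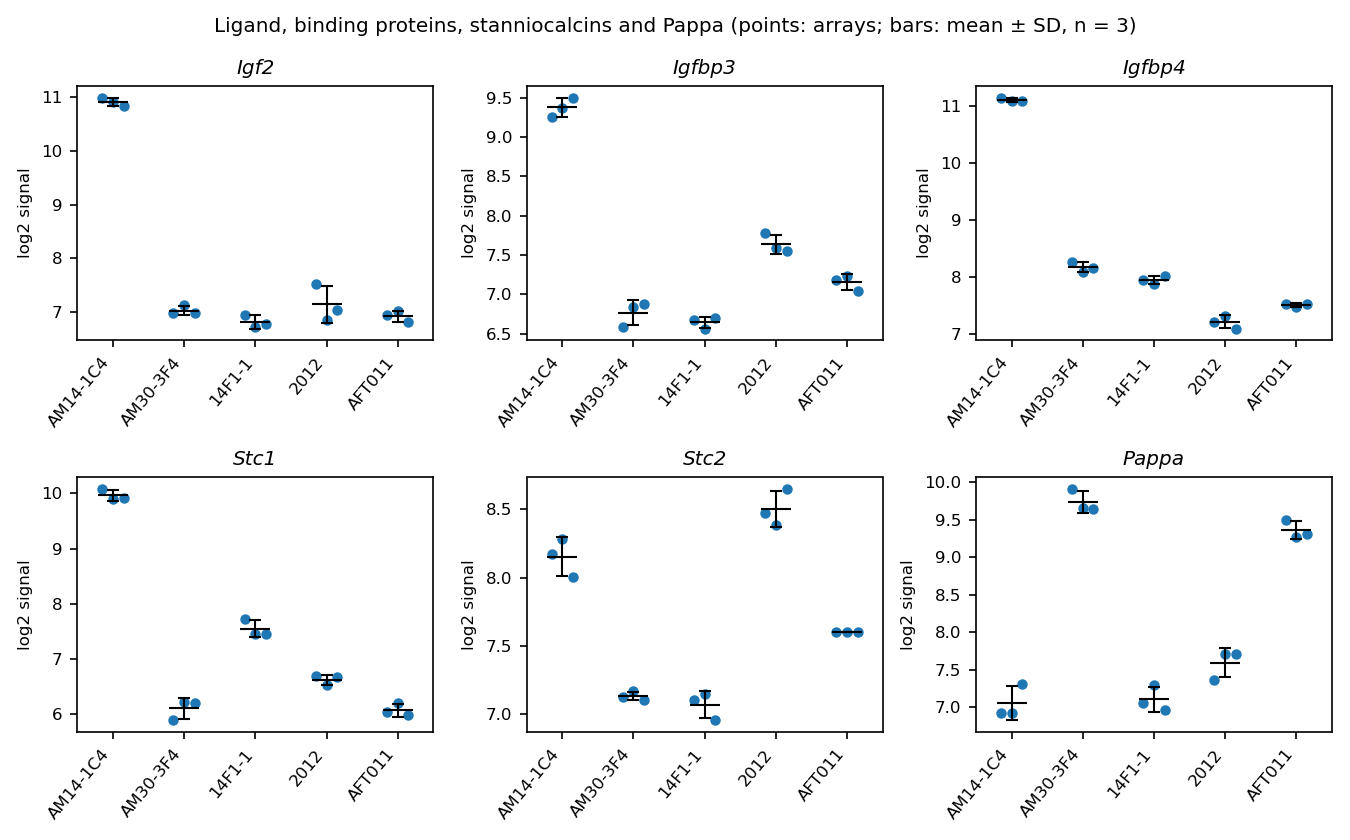
Log2 signal of Igf2, Igfbp3, Igfbp4, Stc1, Stc2 and Pappa in AM14-1C4, AM30-3F4, 14F1-1, 2012 and AFT011; points are arrays and bars the mean ± SD (n = 3). AM14-1C4 lies above the other 4 lines for Igf2, Igfbp3, Igfbp4 and Stc1, while Pappa is high in AM30-3F4 and AFT011, and the 3 AFT011 arrays hold 1 deposited value of Stc2, 7.60.

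The mean of the AM lines was set against 2012, the supportive fetal liver line of the same set. Of the members 3 were higher in the AM lines and 3 lower, 6 of 10, where 31.5% of all genes passed, and the median difference was 0.00 over the members and -0.03 over all genes. Because the AM lines differ from each other, a mean over them can stand for neither. Igfbp4 was above 2012 in both (11.11 ± 0.04 in AM14-1C4, 8.17 ± 0.09 in AM30-3F4 and 7.22 ± 0.11 in 2012, difference 2.43, adjusted p = 5.42e-17). Igfbp6 was below 2012 in both (7.63 ± 0.06 in AM14-1C4, 6.95 ± 0.09 in AM30-3F4 and 9.68 ± 0.12 in 2012, -2.39, adjusted p = 2.23e-19). Igf1 was below 2012 in both (6.80 ± 0.07 in AM14-1C4, 6.41 ± 0.12 in AM30-3F4 and 7.74 ± 0.09 in 2012, -1.13, adjusted p = 1.75e-05).

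Igf2 (1.82, adjusted p = 3.51e-15) and Igfbp3 (0.43, adjusted p = 0.000685) passed on the mean, but AM30-3F4 did not lie above 2012 in either gene. Igf2 averaged 7.03 ± 0.08 in AM30-3F4 and 7.15 ± 0.34 in 2012, and Igfbp3 averaged 6.77 ± 0.16 in AM30-3F4 and 7.64 ± 0.12 in 2012. Igf2r was lower on the mean (-0.57, adjusted p = 1.4e-05). It averaged 10.14 ± 0.03 in AM14-1C4, 9.34 ± 0.07 in AM30-3F4 and 10.31 ± 0.01 in 2012, and AM14-1C4 against 2012 did not pass (adjusted p = 0.298 in limma). Igf1r (-0.17) passed with only the arrays of the set fitted (0.0259), and Igfbp2 without 2012 replicate 1 (0.24, adjusted p = 0.0388). Among 43 other pathway genes 9 were higher and 8 lower, with Htra1 lower by 1.82 and Stc1 higher by 1.41. Of 6 adipocyte markers 3 were higher (sums 49.7 to 50.3 in AM14-1C4, 49.1 to 49.5 in AM30-3F4 and 43.9 to 45.0 in 2012), of 6 mesothelial markers 2 were lower, of 14 hematopoietic markers 2 were higher, and of 10 stromal markers 2 were higher and 3 lower. Their part in the result was not tested.

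14F1-1, the supportive bone marrow line grown at 37 °C, was set against 2012, grown at 33 °C, so that line, tissue, strain and temperature cannot be told apart. Of the members 2 were higher in 14F1-1 and 4 lower, where 36.6% of all genes passed, and the median difference was -0.11 over the members and -0.04 over all genes. Igfbp6 measured 7.02, 6.69 and 7.06 in 14F1-1, against 9.80, 9.69 and 9.55 in 2012 (-2.76, SE 0.12, adjusted p = 8.76e-20). Igfbp3 measured 6.67, 6.56 and 6.70 in 14F1-1, against 7.78, 7.59 and 7.55 in 2012 (1.99-fold lower, adjusted p = 7.19e-09). Both were lower in every 14F1-1 array than in any 2012 array, as was Igf2r (-0.45, adjusted p = 0.00124).

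Igfbp4 (7.95 ± 0.07 in 14F1-1 and 7.22 ± 0.11 in 2012, 0.73, adjusted p = 8.18e-05) and Igfbp7 (13.24 ± 0.01 in 14F1-1 and 12.77 ± 0.02 in 2012, 0.47, adjusted p = 3.5e-06) were higher. Igf2 overlapped between the lines (-0.33, adjusted p = 0.0414), and its call was lost with only the compared arrays (0.135) and without 14F1-1 replicate 2 (0.15), 14F1-1 replicate 3 (0.112) or 2012 replicate 1 (0.495). Igf1 (0.46) passed with only the compared arrays fitted (0.000521), and Igf1r (-0.19) with only those of the set (0.0256). In the rest of the pathway, 43 genes, 11 were higher and 14 lower. Grb10 averaged 6.94 ± 0.08 in 14F1-1 and 11.12 ± 0.04 in 2012 (-4.18, adjusted p = 3.43e-25), and the IGF2 mRNA-binding proteins Igf2bp3 (6.00 ± 0.22 in 14F1-1 and 9.87 ± 0.13 in 2012, -3.86) and Igf2bp1 (-3.43) were lower too. Irs2, a receptor adaptor, was lower by 2.61. Of 6 adipocyte markers 4 were higher (sums 54.0 to 54.2 in 14F1-1 and 43.9 to 45.0 in 2012), of 10 stromal markers 2 were higher and 4 lower (89.8 to 90.5 in 14F1-1 and 98.6 to 100.1 in 2012), and their part in the result was not tested.

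AFT024 and BFC012 were measured again after sorting, which gave values of the same line pair in other arrays. Without KLS cells, 5 of 10 members passed between AFT024-KLS and BFC012-KLS, 3 higher and 2 lower, where 7.32% of all genes passed, and the median difference was 0.06 over the members and -0.05 over all genes. Igfbp7 measured 9.33, 9.65 and 9.75 in AFT024-KLS, against 7.19, 6.72 and 6.73 in BFC012-KLS (2.70, SE 0.21, adjusted p = 2.97e-05). Igfbp6 measured 9.19, 7.84 and 8.14 in AFT024-KLS, against 6.34, 6.27 and 6.35 in BFC012-KLS (2.07, SE 0.28, adjusted p = 0.00147). Neither overlapped, and replicate 1 was the highest AFT024-KLS array for Igfbp6.

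Igfbp5 measured 6.18, 6.48 and 6.29 in AFT024-KLS, against 4.75, 4.91 and 5.04 in BFC012-KLS (1.42, SE 0.27, adjusted p = 0.0103), and here its arrays were close to each other. Igf1r measured 6.59, 6.67 and 6.73 in AFT024-KLS, against 7.63, 7.87 and 7.80 in BFC012-KLS (-1.11, SE 0.15, adjusted p = 0.00147). Igfbp4 averaged 6.45 ± 0.12 in AFT024-KLS and 6.93 ± 0.10 in BFC012-KLS (-0.48, adjusted p = 0.0361). Its call was lost with each array centred on its median (0.0659), with only these arrays fitted (0.0517), and without AFT024-KLS replicate 2 (0.114), AFT024-KLS replicate 3 (0.131), BFC012-KLS replicate 1 (0.0576), BFC012-KLS replicate 2 (0.0611) or BFC012-KLS replicate 3 (0.128). Without the 3 arrays that stood apart the same 5 members passed, with Igfbp7 at 2.98, Igfbp6 at 1.68, Igfbp5 at 1.41, Igfbp4 at -0.53 and Igf1r at -1.14. There 3901 of all genes passed, against 1459 with all sorted arrays.

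With KLS cells, 6 of 10 members passed between AFT024+KLS and BFC012+KLS, 3 higher and 3 lower, where 11.6% of all genes passed, and the median difference was 0.11 over the members and -0.03 over all genes. Igfbp7 measured 9.98, 9.68 and 9.48 in AFT024+KLS, against 7.0, 6.28 and 6.76 in BFC012+KLS (3.03, adjusted p = 1.07e-05). Igfbp6 measured 8.94, 8.27 and 8.64 in AFT024+KLS, against 6.33, 6.27 and 6.45 in BFC012+KLS (2.27, adjusted p = 0.000503). Igfbp2 measured 5.49, 5.80 and 5.66 in AFT024+KLS, against 7.73, 7.62 and 6.93 in BFC012+KLS (-1.78, adjusted p = 0.000408). None of these 3 genes overlapped.

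Igfbp4 was lower (-0.75, adjusted p = 0.00231). Igf1r averaged 6.70 ± 0.37 in AFT024+KLS and 7.38 ± 0.04 in BFC012+KLS (-0.68, adjusted p = 0.0139), and its call was lost without AFT024+KLS replicate 2 (0.052) or BFC012+KLS replicate 2 (0.0503). Igfbp3 averaged 6.84 ± 0.77 in AFT024+KLS and 5.56 ± 0.21 in BFC012+KLS (1.28, adjusted p = 0.0403). This call was lost without AFT024+KLS replicate 1 (0.082), AFT024+KLS replicate 2 (0.074), BFC012+KLS replicate 1 (0.142), BFC012+KLS replicate 2 (0.0898) or BFC012+KLS replicate 3 (0.0868). Without the 3 arrays that stood apart, the differences were 2.90 for Igfbp7, 2.10 for Igfbp6, 0.85 for Igfbp3, -1.70 for Igfbp2, -0.74 for Igfbp4 and -0.88 for Igf1r, and all 6 passed. Igfbp5 also passed (0.96, adjusted p = 0.000539), 7 members in all, and it passed without AFT024+KLS replicate 1 alone (0.00397). Without the 3 arrays 5354 of all genes passed, against 2314 with all sorted arrays.

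Set beside the confluent cultures, AFT024 minus BFC012 was 1.12 confluent, 3.03 with KLS cells and 2.70 without for Igfbp7, and 3.83, 2.27 and 2.07 for Igfbp6. Igf1r was lower in AFT024 in all 3 states, by 0.87, 0.68 and 1.11. Of the other confluent calls, in the fit to all sorted arrays Igfbp5 passed again only without KLS cells and Igfbp3 only with them. Igf1, Igf2 and Igf2r passed in neither sorted state. Igf2 averaged 6.76 in AFT024+KLS and 7.12 in BFC012+KLS, and 6.30 in AFT024-KLS and 6.39 in BFC012-KLS. Without the 3 arrays that stood apart the Igf2 difference was 0.14 with KLS cells and -0.22 without, and neither passed. The sets were normalized separately, and the differences between states were not tested. Of 6 mesothelial markers 5 were lower without KLS cells (sums 32.1 to 32.6 in AFT024-KLS and 40.0 to 40.8 in BFC012-KLS) and 3 with them (30.9 to 33.8 in AFT024+KLS and 36.9 to 40.7 in BFC012+KLS), and 3 of 6 adipocyte markers were higher in both states. Their part in the result was not tested. Of the 43 other genes of the pathway 1 was higher and 2 lower without KLS cells and 3 higher and 3 lower with them. Grb14 was lower in both states (-1.21 and -0.83) and Irs1 higher in both (0.83 and 1.09).

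**Figure D4:**
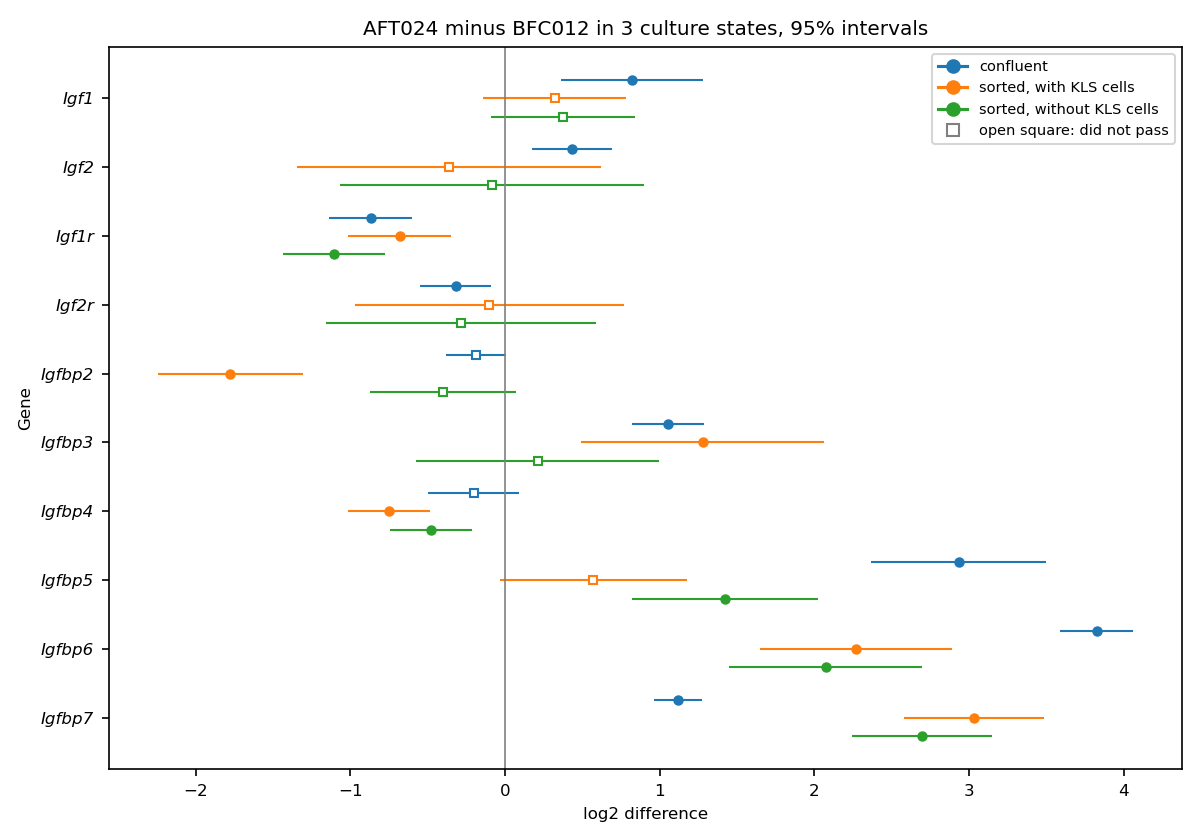
Log2 difference AFT024 minus BFC012 for the 10 genes in confluent cultures, in sorted cells with KLS cells and in sorted cells without; lines are 95% intervals from limma, filled circles passed and open squares did not. Igfbp6 and Igfbp7 lie right of 0 and Igf1r left of 0 in all 3 states.

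The sorted cells also give the response of each line to 4 days with KLS cells. Igf1 was lower with KLS cells in both lines, and Igfbp2 was higher in BFC012. In AFT024 1 of 10 members passed, where 0.351% of all genes did, and the median difference was 0.09 over the members and 0.01 over all genes. In BFC012 2 of 10 passed, where 0.883% did, and the median difference was 0.02 over the members and -0.02 over all genes. The members were chosen with earlier results of these data known, so these shares are a description.

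Igf1 measured 5.47, 5.42 and 5.02 in AFT024+KLS, against 6.15, 6.90 and 6.59 in AFT024-KLS. All arrays with KLS cells were below all arrays without, and the difference was -1.24 (SE 0.21, adjusted p = 0.0359). In BFC012 Igf1 measured 5.11, 4.85 and 4.99 with KLS cells, against 5.84, 6.16 and 6.51 without (-1.18, SE 0.21, adjusted p = 0.0265), again without overlap. The response of AFT024 minus that of BFC012 was -0.05 for Igf1 (95% interval -0.71 to 0.60, adjusted p = 0.985), and -0.17 without the 3 arrays that stood apart (-0.66 to 0.32, adjusted p = 0.786).

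The calls on Igf1 depended on the fit. In AFT024 the adjusted p for Igf1 was 0.236 with only these arrays fitted, and without AFT024-KLS replicate 2 it was 0.156, without AFT024-KLS replicate 3 0.138, without AFT024+KLS replicate 2 0.101 and without AFT024+KLS replicate 3 0.094. In BFC012 Igf1 passed with only these arrays fitted (0.0369). There the adjusted p was 0.103 without BFC012-KLS replicate 2, 0.108 without BFC012-KLS replicate 3, and 0.0805, 0.128 and 0.107 without BFC012+KLS replicates 1, 2 and 3. Without the 3 arrays that stood apart the Igf1 difference was -1.52 in AFT024 and -1.35 in BFC012, and both passed.

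Igfbp2 measured 7.73, 7.62 and 6.93 in BFC012+KLS, against 5.70, 6.24 and 6.38 in BFC012-KLS (1.32, SE 0.21, adjusted p = 0.0167), without overlap. In AFT024 it measured 5.49, 5.80 and 5.66 with KLS cells, against 5.65, 5.75 and 5.72 without, and the difference of -0.06 did not pass (unadjusted p = 0.798 in limma). The response of AFT024 minus that of BFC012 was -1.38 (95% interval -2.04 to -0.71), which did not pass over all genes (adjusted p = 0.191), and -1.12 without the 3 arrays (-1.74 to -0.51, adjusted p = 0.0504). The Igfbp2 call in BFC012 was lost with only these arrays fitted (0.0993) and without BFC012-KLS replicate 2 (0.0552), BFC012+KLS replicate 1 (0.0792) or BFC012+KLS replicate 2 (0.0941). Without the 3 arrays that stood apart it was 1.12 and passed.

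The line-by-KLS difference passed in 0 of 10 members in limma, where 0.0401% of all genes passed, and in 1 member, Igfbp2, at an unadjusted p under 0.05. Without the 3 arrays it again passed in 0 members in limma, and in 3 at an unadjusted p under 0.05, while 758 of all genes passed. Without them, 2 members passed in AFT024 (Igf1, and Igf2 at 0.67, adjusted p = 0.0192) and 4 in BFC012 (Igf1, Igfbp2, Igf1r at -0.45 and Igfbp3 at -0.55). Over all genes 1195 then passed in AFT024 and 2069 in BFC012, against 70 and 176 with all sorted arrays. Igf2 in replicate 1 of AFT024+KLS, AFT024-KLS and BFC012-KLS was 5.75, 5.73 and 5.54, against 6.55 to 7.49 in replicates 2 and 3 of these groups. Igfbp3 in AFT024 (0.84, adjusted p = 0.494) and Igfbp5 in AFT024 (-0.72, adjusted p = 0.407) did not overlap between arrays with and without KLS cells and did not pass.

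Of the 43 other genes of the pathway 1 was higher with KLS cells in AFT024, Grb10 (8.48 ± 0.30 in AFT024+KLS and 7.64 ± 0.06 in AFT024-KLS, 0.85, adjusted p = 0.035), and 1 in BFC012, Pappa2, a pappalysin that cleaves IGFBP3 and IGFBP5 (5.30 ± 0.15 in BFC012+KLS and 4.65 ± 0.16 in BFC012-KLS, 0.64, adjusted p = 0.0369). In limma 0 were lower in either line (0 in AFT024 and 3 in BFC012 at an unadjusted p under 0.05). The 14 hematopoietic markers summed to 62.1 to 63.8 in AFT024+KLS and 61.1 to 61.9 in AFT024-KLS, and to 61.7 to 65.0 in BFC012+KLS and 62.3 to 62.9 in BFC012-KLS. In limma 0 of the 14 passed in either line, and at an unadjusted p under 0.05 1 did in each. Below the first quartile of genes lay 7 of the 14 in BFC012+KLS and 8 in each of the other groups, Ptprc among them in all 4 groups. Spi1, Coro1a, Mpo, Csf1r, Tyrobp and Cd52 lay above it in all 4. The 6 adipocyte markers summed to 43.7 to 48.6 in AFT024+KLS and 38.8 to 39.5 in AFT024-KLS, and to 34.5 to 36.2 in BFC012+KLS and 32.6 to 32.8 in BFC012-KLS, with 1 of 6 passing in each line, and their part in the Igf1 and Igfbp2 differences was not tested.

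**Figure D5:**
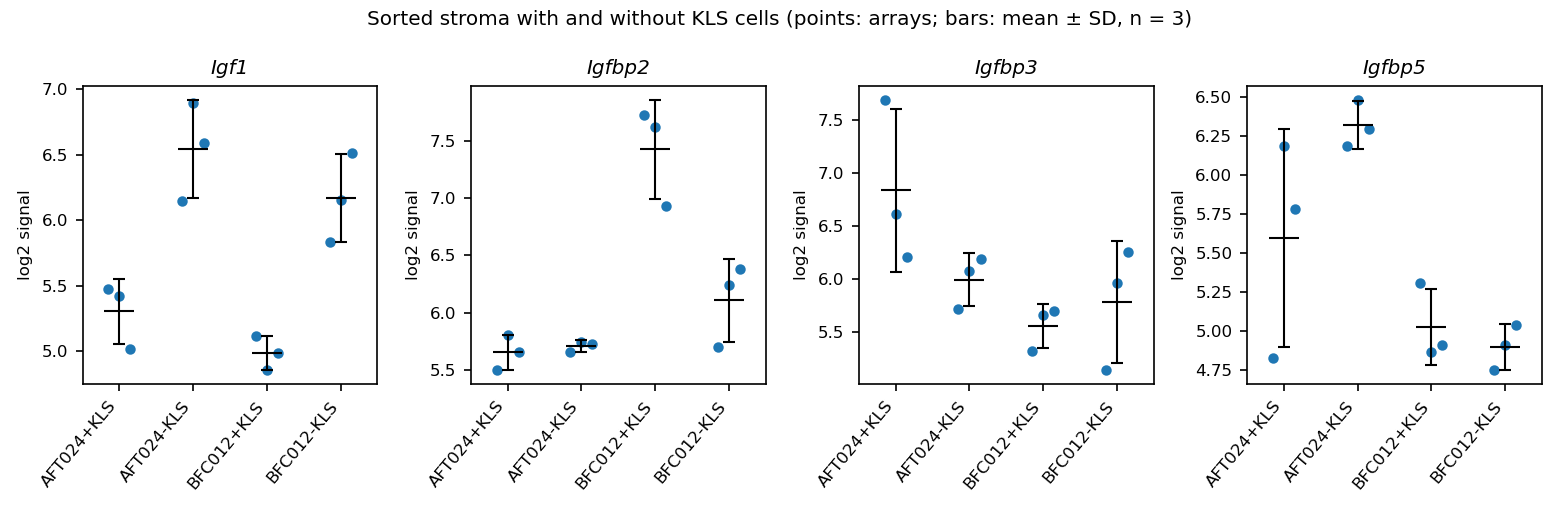
Log2 signal of Igf1, Igfbp2, Igfbp3 and Igfbp5 in AFT024+KLS, AFT024-KLS, BFC012+KLS and BFC012-KLS; points are arrays and bars the mean ± SD (n = 3). Igf1 is lower with KLS cells in both lines and Igfbp2 is highest in BFC012+KLS.

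The genes whose pattern over the groups was most like that of each member were named by a Pearson correlation over the 17 group means, each taken minus the mean of its set; it is a description, and the points share arrays, lines and sets. For Igf2 they were Tro (0.970) and Kcnip3 (0.969), and for Igf1 Tbc1d19 (0.814) and Dnm1l (0.795). Igf1r was most like Tbc1d12 (0.895) and Farp1 (0.888), and Igf2r most like Cldn8 (0.893) and Lypd11 (0.872). Among the binding proteins, the closest gene was Saa3 for Igfbp2 (0.973), Notch3 for Igfbp3 (0.888), Zfp454 for Igfbp4 (0.871), Sall1 for Igfbp5 (0.978), Rcan2 for Igfbp6 (0.903) and Plaat3 for Igfbp7 (0.949). For Igf2, Igfbp5 and Igfbp2 a single group lies far from the others, AM14-1C4, AFT024 and BFC012+KLS in that order. Saa3, an acute-phase serum amyloid gene, was the closest to Igfbp2, which itself was highest in BFC012+KLS within the sorted set.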

How the data were processed

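The authors deposited each array as log2 signals per probe set, and the submitters' processing notes name RMA and Partek for making them; no version or setting is given in the sources used here. Deposited values were used without further scaling. Of 35556 probe sets, 21789 name 1 gene symbol in the platform annotation, 1621 several and 12146 none; those naming 1 symbol gave 19938 genes, with the brightest probe set standing for a gene that had several. Each member had 1 probe set. A linear model was fitted with limma 3.58.1 in R 4.3.3 to the 39 confluent arrays, and another to the 12 sorted arrays, with empirical Bayes moderation, two-sided tests and Benjamini-Hochberg adjustment over 19938 genes at 0.05. All p-values are limma's unless another test is named. The fit was tested on simulated data.

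The members, gene lists and tests were chosen with earlier results of these data known. The text names all 10 members, up to 4 other pathway genes a comparison with the largest differences past the threshold, and the 2 genes most like a member; Stc2 in the AM comparison was named after its values were seen. Of 49 other listed pathway genes 43 were measured. Replicate numbers, taken from the labels, were tested as pairs through the correlation of deviations from group means. All 3 like-number correlations exceeded 0.1 in the AGM pair (0.535, 0.327 and 0.468), the bone marrow pair (0.323, 0.116 and 0.435), AFT024 and BMC9 (0.528, 0.367 and 0.433) and the sorted lines without KLS cells (0.671, 0.517 and 0.466). The highest correlation between unlike numbers was 0.103, 0.194, -0.009 and 0.501 in the same order. In the bone marrow pair and the sorted lines it exceeded the lowest like-number value, so pairing by number is not clear there. Alternatives changed the arrays fitted, the normalization (median centring or quantile), the probe set rule, the filter on dim genes, the variance prior, the replicate block and the arrays left out. The number of arrays, 3 a group, limits the precision.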

Additional observations from a re-analysis of the deposited data

Results flagged for a closer look

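The 3 supportive minus less or non-supportive pairs of the first normalization set differed from each other by a test of the difference itself in limma; between the fetal liver and bone marrow pairs no ligand passed. The fetal liver difference (AFT024 minus BFC012) minus the AGM difference (UG26.1B6 minus UG26.3B5) was 1.16 for Igf1 (adjusted p = 0.00636), -2.08 for Igf1r (8.21e-11), -1.32 for Igf2r (5.14e-08), 1.48 for Igfbp3 (6.29e-09), 1.63 for Igfbp4 (1.11e-07), 2.79 for Igfbp5 (9.61e-07), 3.69 for Igfbp6 (1.14e-18) and 1.20 for Igfbp7 (5.61e-11). The bone marrow difference (BMC9 minus BMC10) minus the AGM difference was 1.19 for Igf1 (adjusted p = 0.00994), -1.11 for Igf1r (4.05e-05), -0.77 for Igf2r (0.000731), 0.87 for Igfbp3 (0.000176) and 2.81 for Igfbp4 (1.49e-12). The fetal liver difference minus the bone marrow difference was -0.96 for Igf1r (adjusted p = 0.00013), -0.55 for Igf2r (0.00836), 0.61 for Igfbp3 (0.00398), -1.18 for Igfbp4 (2.75e-05), 2.81 for Igfbp5 (7.4e-07), 3.73 for Igfbp6 (5.89e-19) and 1.02 for Igfbp7 (2.27e-09).

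Pairs of different normalization sets had arrays that did not overlap and lay in opposite directions, and the difference between pairs of different sets was not tested. For Igf1 the difference was -0.23 in 2012 minus AFT011, which did not pass (adjusted p = 0.477 in limma), 0.82 in AFT024 minus BFC012 and 1.40 in OP9 minus BFC. For Igf1r it was -0.52 in 2012 minus AFT011 and 1.21 in UG26.1B6 minus UG26.3B5. For Igfbp3 it was 0.49 in 2012 minus AFT011 and -0.43 in UG26.1B6 minus UG26.3B5. For Igfbp4 it was 1.77 in OP9 minus BFC, -0.30 in 2012 minus AFT011, -1.83 in UG26.1B6 minus UG26.3B5 and 0.98 in BMC9 minus BMC10. The Igfbp4 difference in 2012 minus AFT011 did not pass (adjusted p = 0.119 in limma). The UG26 and BMC pairs share a set, and the difference between them was tested above. For Igfbp6 it was -0.41 in OP9 minus BFC, where both means lay below the median of genes, 3.83 in AFT024 minus BFC012 and 0.65 in 2012 minus AFT011.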

How the results depend on the processing

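Besides leaving out single arrays, 8 alternatives were run. The replicate block was always fitted to only the arrays of the groups compared. The sorted comparisons were also run without the 3 arrays that stood apart, which was chosen after the data were seen and is included in the tallies that follow. Counts of members moved by no more than 1.5 times in 133 of their values and by more in 8, and single differences kept direction and side of the threshold in 735, lost the call in 30 and gained one in 21. In AFT024 with against without KLS cells the count of 1 member became 0 with only the compared arrays fitted, 0 with the replicate block and 2 without the 3 sorted arrays that stood apart, and it ranged from 0 to 1 on leaving out single arrays. In BFC012 the count of 2 became 1 with only the compared arrays, 0 with the replicate block and 4 without the 3 arrays, and it ranged from 0 to 2 on leaving out single arrays. The bone marrow minus AGM difference passed in 3 members, against 5, with only the compared arrays and also with the replicate block. Leaving out single arrays turned the direction of 2 differences that had not passed: Igfbp4 in AFT024 minus BFC012 ranged from -0.43 to 0.00322, the highest without BFC012 replicate 3, and Igfbp3 in BFC012 with against without KLS cells ranged from -0.55 to 0.00897, the highest without BFC012-KLS replicate 3. The cause of these changes was not tested. In the AGM pair, the bone marrow pair and AFT024-KLS minus BFC012-KLS all 3 like-number correlations exceeded 0.1. Among member calls of these comparisons the fit with the block changed that of Igf1 in the bone marrow pair and no other. That call was also lost with only the compared arrays and no block (adjusted p = 0.252, and 0.0813 with the block). In AFT024 minus BFC012, AFT024+KLS minus BFC012+KLS and the AM set the samples share only a number. There the calls on Igf1r and Igfbp3 in AFT024+KLS minus BFC012+KLS were lost with the block and kept with only the compared arrays. The call on Igf2r in AFT024 minus BFC012 was lost in both of these fits. Igf1 and Igfbp5 in the AM lines and Igf1 in 14F1-1 minus 2012 gained a call in both. Counts over all genes moved by over 1.5 times in several comparisons: AGM pair 1707 against 748 with only its arrays, bone marrow pair 3082 against 1296, AFT024-KLS against BFC012-KLS 1459 against 749 to 3901, AFT024+KLS against BFC012+KLS 2314 against 1381 to 5354, KLS cells in AFT024 70 against 0 to 1195, in BFC012 176 against 58 to 2069, the line-by-KLS difference 8 against 0 to 758, and bone marrow minus AGM 2521 against 1435. Igfbp5 and Igfbp2 were below the median of genes in 15 of 17 groups each, Igf2 in 12, Igfbp3 in 10, Igf1 in 8 and Igfbp6 in 4.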
